A study of Homo sapiens with 10 samples.

Results

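The IFIT family (interferon-induced proteins with tetratricopeptide repeats) was followed in 2 human breast cancer cell lines given a duplex against Che-1, the protein encoded by AATF. The members were the 5 genes IFIT1, IFIT1B, IFIT2, IFIT3 and IFIT5, chosen by name, out of 18417 genes with a probe set on the array. Each had a single probe set annotated to it alone. The lines, SKBR3 (high in ERBB2) and MDA-468 (basal-like and high in EGFR), carry mutant p53 per the labels. Cells of each line received control RNA duplexes (siControl) or duplexes against Che-1 (siChe-1) by transfection, and total RNA was taken 48 h later. There were 2 siControl and 2 siChe-1 arrays of SKBR3, and 3 siControl and 3 siChe-1 arrays of MDA-468. All groups were transfected with double-stranded RNA, and the labels name 1 reagent against Che-1, so a response to loss of AATF and a response to that duplex cannot be told apart.

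IFIT proteins are cytoplasmic effectors of the interferon response that are built almost wholly from tetratricopeptide repeats. IFIT1 binds messenger RNA whose cap lacks ribose methylation and blocks its translation. IFIT2 and IFIT3 form complexes with IFIT1, and IFIT3 stabilises IFIT1 in them, whereas IFIT5 binds RNA that starts with a triphosphate. The genes are switched on by the factor ISGF3, which binds a promoter element called the interferon-stimulated response element (ISRE). Some of them can also be switched on by IRF3 after foreign RNA is sensed, without interferon as a go-between. IFIT1B is a paralogue that lies between IFIT3 and IFIT1.

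The promoters are shown because the ISRE is a promoter element. The RefSeq promoter table (build GRCh38.p14) held 4 of the 5 members; IFIT2 is named only. The ISRE core was searched on both strands as 2 copies of GAAA with any 2 bases between them, or 2 copies of TTTC on the reverse strand, in the 250 bases before each transcription start. Capitals mark the matches, all of which lie on the reverse strand, and each sequence runs 5′ to 3′ on the plus strand of chromosome 10. The windows are chr10:89392373-89392622 for IFIT1, chr10:89327747-89327996 for the first of 2 listed starts of IFIT3, chr10:89414318-89414567 for IFIT5 and chr10:89377806-89378055 for IFIT1B.
IFIT1: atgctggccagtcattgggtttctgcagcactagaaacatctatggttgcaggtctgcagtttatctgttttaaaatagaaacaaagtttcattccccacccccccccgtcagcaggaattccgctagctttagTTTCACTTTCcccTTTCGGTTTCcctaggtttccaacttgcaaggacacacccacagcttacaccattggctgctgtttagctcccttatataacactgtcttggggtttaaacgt
IFIT3: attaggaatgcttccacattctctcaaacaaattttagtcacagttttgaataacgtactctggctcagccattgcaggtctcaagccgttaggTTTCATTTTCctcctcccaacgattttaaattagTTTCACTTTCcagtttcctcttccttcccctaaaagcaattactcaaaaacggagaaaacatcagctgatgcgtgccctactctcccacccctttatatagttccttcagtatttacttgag
IFIT5: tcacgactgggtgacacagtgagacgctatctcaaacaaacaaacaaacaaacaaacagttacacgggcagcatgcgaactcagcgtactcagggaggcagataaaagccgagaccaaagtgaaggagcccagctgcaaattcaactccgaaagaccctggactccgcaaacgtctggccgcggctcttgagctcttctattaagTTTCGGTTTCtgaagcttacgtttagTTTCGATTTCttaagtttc
IFIT1B: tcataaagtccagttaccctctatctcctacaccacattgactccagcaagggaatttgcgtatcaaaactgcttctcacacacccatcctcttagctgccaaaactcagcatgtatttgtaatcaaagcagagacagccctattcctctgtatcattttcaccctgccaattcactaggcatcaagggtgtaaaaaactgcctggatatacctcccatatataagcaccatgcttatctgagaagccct
IFIT1 held 2 matches, TTTCACTTTC and TTTCGGTTTC, which begin 116 and 103 bases before the start. IFIT3 held 2 before its first start, at 156 and 122 bases, and 2 before the second, at 94 and 51 bases. IFIT5 held 2, at 45 and 19 bases. IFIT1B held 0. Of all 35116 promoter windows of this length, 3.02% held at least 1 match and 0.225% held 2 or more. The core of another interferon element, GAS, searched as TTCNNNGAA, which reads the same on both strands, was in none of the members' windows and in 6.57% of all windows. The 2 patterns can overlap. A match is a stretch of letters and does not show that a factor was bound.

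AATF, the target of the duplex, was lower on every siChe-1 array of its line. Its log2 intensity was 8.69 and 8.68 on the SKBR3 siControl arrays against 8.09 and 7.97 with siChe-1. In MDA-468 it was 8.86, 8.87 and 8.90 against 7.08, 7.13 and 7.29. What was left of the AATF signal came to 63.3% of siControl for SKBR3 and 30.5% for MDA-468. The identity of the lines was checked on marker genes: ERBB2 stood at 12.33 in SKBR3 and 8.29 in MDA-468 siControl cells, and EGFR at 7.91 and 12.25. The epithelial keratin KRT8 was at 12.89 and 12.67. Of the other listed epithelial markers, CDH1 was at only 5.12 in SKBR3 and at 10.20 in MDA-468. EPCAM, KRT18 and KRT19 were at 11.59 or above in siControl cells of both lines. Replicate arrays correlated with r from 0.978 to 0.996 over the 12892 genes tested. Nothing in the labels says that replicates came from separate cultures, so p-values measure the spread between these arrays, which may be technical. Among leukocyte markers, PTPRC stood at 4.03 or less in every group and CD3E at 5.10 or less, whereas CD14 stood at 9.51 and 10.15 in MDA-468 siControl and siChe-1 cells and CD68 at 6.89 and 8.38 in those of SKBR3. Of those tested, 2 of 3 in SKBR3 (CD14 and CD68) and 3 of 3 in MDA-468 (CD14, ITGAM and CD68) rose. Over the 7 measured markers the summed log2 value per array ran from 34.0 to 35.3 in SKBR3 siControl, 36.6 to 38.3 in SKBR3 siChe-1, 40.3 to 41.1 in MDA-468 siControl and 42.2 to 43.2 in MDA-468 siChe-1. Of markers of plasmacytoid dendritic cells (3 measured) and of endothelium (4 measured), 0 passed the filter on low values, and of 3 fibroblast markers tested 0 rose in SKBR3 and 1 rose in MDA-468 (COL1A1, by 0.34). The part of these markers in the results was not tested.

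IFIT2, IFIT1, IFIT3 and IFIT5 rose in both lines with siChe-1, IFIT2 and IFIT1 to near the top of the signal range, and IFIT1B stayed at percentile 24.8 or below of all probe sets on every array. The changes of the 4 ran from 3.65 log2 units (IFIT5 in MDA-468) to 8.36 (IFIT2 in SKBR3). In both lines IFIT2 and IFIT1 ranked 1 and 2 for their rise among the 12892 genes tested. These ranks rest on siControl means below the filter level and siChe-1 values within 2.09 log2 units of the brightest probe set, so the measured changes may be bounded at either end. IFIT3 ranked 7 in SKBR3 and 12 in MDA-468, and IFIT5 ranked 37 and 39. These arrays read RNA of whole cultures, so more responding cells and more RNA per cell cannot be told apart.

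IFIT2, a partner of IFIT1 and IFIT3 in their complex, went from the lower part of the range to its top. It measured 4.27 and 4.15 on the SKBR3 siControl arrays and 12.64 and 12.50 with siChe-1. In MDA-468 it measured 5.70, 5.09 and 5.59 with siControl and 13.03, 13.05 and 13.15 with siChe-1. The groups were at least 7.33 log2 units apart in either line, and the siControl arrays of MDA-468 spread more (SD 0.32, n = 3) than its siChe-1 arrays (SD 0.063, n = 3). The change was 8.36 ± 0.17 (log2 fold change ± SE of the limma fit, adjusted p = 2.79e-11) in SKBR3 and 7.62 ± 0.14 (adjusted p = 1.38e-11) in MDA-468, a rise in signal of 329-fold and 196-fold.

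IFIT1, the sensor of undermethylated caps, followed closely. It measured 4.64 and 4.90 with siControl and 12.88 and 12.67 with siChe-1 in SKBR3. In MDA-468 the values were 5.63, 5.35 and 5.40 against 12.98, 13.11 and 13.14. All siChe-1 arrays of both lines lay between 12.67 and 13.14. IFIT1 rose by 8.00 ± 0.13 in SKBR3 (adjusted p = 8.13e-12) and by 7.61 ± 0.11 in MDA-468 (adjusted p = 2.4e-12), or 257-fold and 196-fold.

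IFIT3, which stabilises IFIT1, rose less, and by more in SKBR3 than in MDA-468. It measured 5.01 and 4.40 with siControl and 11.54 and 11.50 with siChe-1 in SKBR3. In MDA-468 it measured 6.57, 6.18 and 6.11 with siControl and 11.39, 11.62 and 11.76 with siChe-1. The siChe-1 values of the lines overlapped, whereas every siControl value was higher in MDA-468. The change was 6.81 ± 0.20 in SKBR3 (adjusted p = 7.54e-10) and 5.30 ± 0.17 in MDA-468 (adjusted p = 1.02e-09), or 112-fold and 39.5-fold.

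IFIT5, the binder of triphosphate RNA, had the smallest rise of the 4. It measured 5.02 and 4.78 with siControl and 9.68 and 9.16 with siChe-1 in SKBR3. In MDA-468 it measured 7.33, 6.84 and 7.03 with siControl and 10.54, 10.76 and 10.85 with siChe-1. MDA-468 was higher than SKBR3 both before and after, and the SKBR3 siChe-1 arrays were further apart (SD 0.37, n = 2) than those of IFIT3 (SD 0.029). The change was 4.52 ± 0.19 in SKBR3 (adjusted p = 1.9e-08) and 3.65 ± 0.16 in MDA-468 (adjusted p = 1.36e-08), or 22.9-fold and 12.5-fold.

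IFIT1B, the paralogue between IFIT3 and IFIT1, stayed low. It measured 4.10 and 3.77 with siControl and 4.08 and 4.62 with siChe-1 in SKBR3, where the groups overlapped. In MDA-468 it measured 4.11, 4.37 and 4.14 with siControl and 5.07, 5.19 and 4.95 with siChe-1, so that the groups did not overlap. Its mean over all arrays, 4.44, was below the filter level of 6.03 (the 30th percentile over genes), and it was not among the genes tested. Fitted with no filter, it changed by 0.41 ± 0.18 in SKBR3 (limma adjusted p = 0.157) and 0.86 ± 0.15 in MDA-468 (adjusted p = 0.000712); the difference between the lines, -0.45, did not pass the test (adjusted p = 0.259). IFIT1B and IFIT1 are paralogues, and whether its probe set reads IFIT1 transcripts was not tested. IFIT1 rose by 8.00 in SKBR3 and by 7.61 in MDA-468. All IFIT1B values were below the filter level and its changes were not separated between the lines, so these values cannot decide that.

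**Figure D1:**
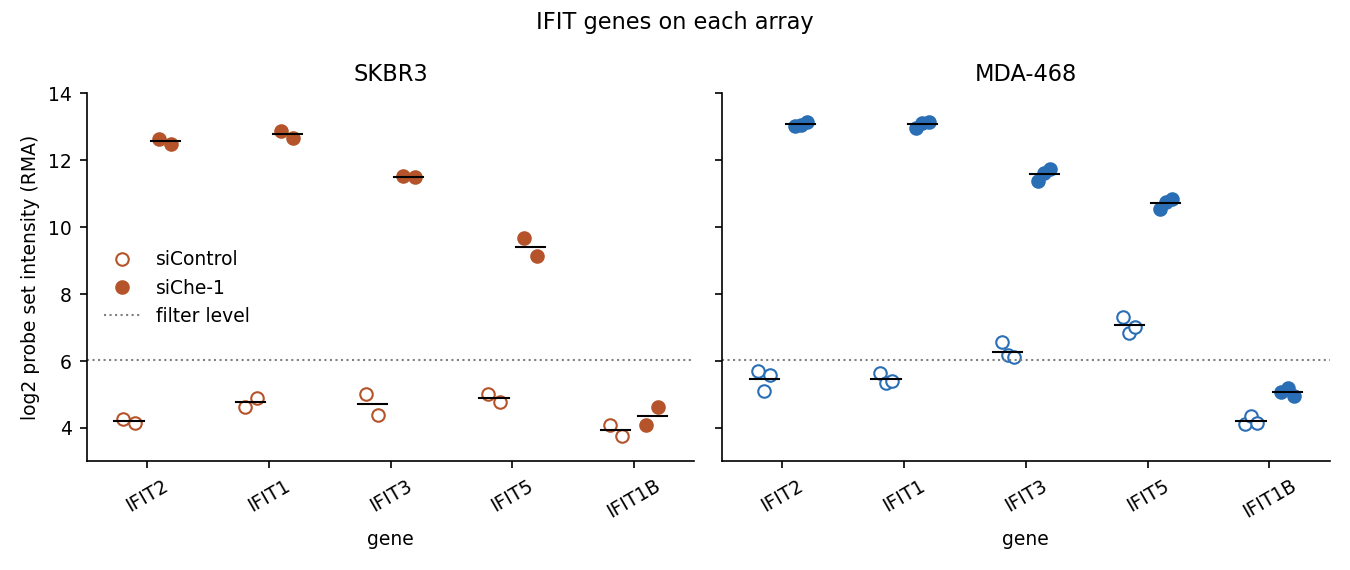
Log2 probe set intensity of the 5 IFIT genes on each array of SKBR3 (left) and MDA-468 (right), with siControl arrays as open circles, siChe-1 arrays as filled circles, group means as short black lines and the filter level of 6.03 as a dotted line. All siChe-1 arrays of IFIT2, IFIT1, IFIT3 and IFIT5 lie at 9.16 or above, while IFIT1B stays at 5.19 or below on every array.

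Among the 4 members tested, 4 were called higher in SKBR3, where 6.64% of all genes tested were, and 4 in MDA-468, where 16.4% were. Every siChe-1 array lay above every siControl array for these genes in both lines, which held for 14.5% of the genes tested in SKBR3 and 23.9% in MDA-468. The filter used the mean over all arrays. In SKBR3 the siControl means of all 4 (4.21 to 4.90) were below the filter level, as were those of IFIT2 and IFIT1 in MDA-468 (both 5.46). These genes passed through their siChe-1 values, so the share of tested members called has no weight of its own. With no filter, 4 of 5 members were called in SKBR3 beside 4.69% of 18417 genes, and 5 of 5 in MDA-468 beside 12.4%. The calls of the 4 in both lines held in each of the other fits made in which they were tested, including each line fitted alone and with any single array left out.

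The starting and end points of the genes lay in different parts of the signal range. On SKBR3 siControl arrays IFIT2 was between percentiles 17.6 and 19.2 of all probe sets, and IFIT1, IFIT3 and IFIT5 were between 20.8 and 28.6. On MDA-468 siControl arrays IFIT2 and IFIT1 were between percentiles 23.8 and 32.4, IFIT3 reached 45.8 and IFIT5 reached 56.3. With siChe-1, IFIT2 and IFIT1 were between percentiles 99.2 and 99.7 on every array, within 1.18 to 2.09 log2 units of the brightest probe set. IFIT3 was then between percentiles 96.4 and 97.5 and IFIT5 between 87.6 and 93.9.

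Ratios between members on the same array set the sizes of their changes against each other. The log2 ratio of IFIT2 to IFIT1 moved by 0.36 in SKBR3 and by 0.0026 in MDA-468, a mean of 0.18 (exact permutation of the treatment labels within each line, 2-sided, p = 0.25). This test did not separate the rises of these 2 genes. All 5 other pairs separated in both lines, with siChe-1 and siControl arrays not overlapping, and each reached the smallest p that 120 label splits allow (exact p = 0.0167, adjusted over 6 pairs p = 0.02).

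IFIT1 outgrew IFIT3 by 1.19 log2 units in SKBR3 and 2.31 in MDA-468. IFIT2 outgrew IFIT3 by 1.55 and 2.31. IFIT3 in turn outgrew IFIT5 by 2.29 in SKBR3 and 1.66 in MDA-468, and IFIT1 outgrew IFIT5 by 3.49 and 3.97. The order of the rises was therefore IFIT2 with IFIT1, then IFIT3, then IFIT5 in both lines. These are differences between changes, since levels of different probe sets cannot be ranked, and how far each probe set's response near background or near the top shaped them was not tested.

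**Figure D2:**
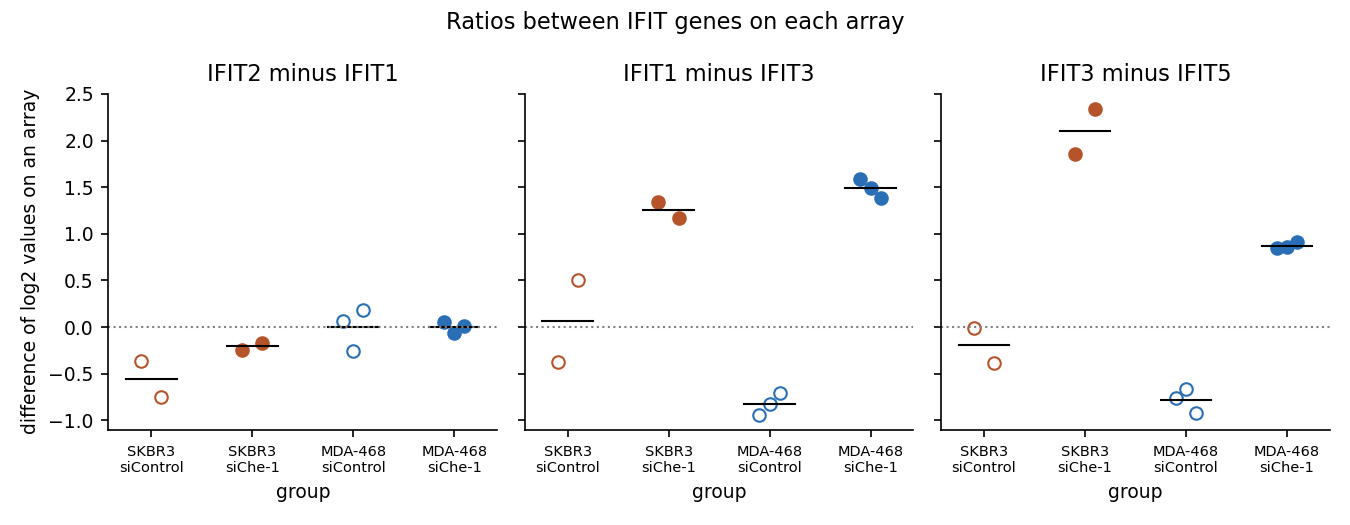
Difference of log2 values between 2 IFIT genes on each array (points) with group means (black lines), for IFIT2 minus IFIT1, IFIT1 minus IFIT3 and IFIT3 minus IFIT5, in the 4 groups. IFIT2 minus IFIT1 moved by a mean of 0.18 with siChe-1, whereas the other differences rose in both lines with no overlap between siControl and siChe-1 arrays.

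Between the lines, IFIT2, IFIT3 and IFIT5 rose more in SKBR3, and the gap was widest for IFIT3. IFIT3 rose by 1.51 ± 0.26 log2 units more in SKBR3 than in MDA-468 (limma adjusted p = 0.00254), IFIT5 by 0.87 ± 0.25 (adjusted p = 0.0319) and IFIT2 by 0.74 ± 0.21 (adjusted p = 0.0334). IFIT1 differed by 0.39 ± 0.17 (95% interval 0.024 to 0.76, adjusted p = 0.13). Thus 3 of 4 members were called higher in this comparison, where 8.49% of genes tested were.

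Of these calls only that of IFIT3 held in every other fit in which the difference was tested, with an adjusted p of at most 0.0265. With a filter on the siControl mean of the line, no member could be tested for a difference between the lines. The call of IFIT2 was lost when the arrays were quantile-normalized together, with a difference of 0.32 (adjusted p = 0.36), and IFIT1 was then at -0.04. It was also lost when any of 8 single arrays was left out, all but SKBR3 siChe-1 replicate 2 and MDA-468 siControl replicate 2 (adjusted p = 0.0526 to 0.119). The call of IFIT5 was lost without any of 6 arrays: SKBR3 siControl replicate 2, SKBR3 siChe-1 replicate 1, MDA-468 siControl replicates 1 and 3, and MDA-468 siChe-1 replicates 1 and 2 (adjusted p = 0.0581 to 0.129).

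The lines differed in measured level both with siControl and with siChe-1. The SKBR3 siControl values of all 4 members were below the filter level, so differences from them are imprecise. With siControl, IFIT3 was lower in SKBR3 by 1.58 log2 units (difference -1.58), and with siChe-1 the difference was -0.07. For IFIT5 the difference was -2.17 with siControl and -1.30 with siChe-1, for IFIT2 -1.25 and -0.51, and for IFIT1 -0.69 and -0.30. Array medians also differed, at 6.36 to 6.45 in SKBR3 and 6.87 to 6.94 in MDA-468, so levels were not tested across lines. Relative to the array medians, IFIT3 differed by -1.09 with siControl and 0.42 with siChe-1, IFIT5 by -1.67 and -0.81, IFIT2 by -0.76 and -0.015, and IFIT1 by -0.20 and 0.19. On either scale IFIT3 and IFIT5, which rose less in MDA-468, started higher there. The difference in rise is the difference with siChe-1 minus that with siControl, so start and rise are tied by arithmetic. Whether the starting level had a part in the rise was not tested.

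Within each siChe-1 group, the same array was the lowest for all 4 risen members. SKBR3 siChe-1 replicate 2 was below replicate 1 for all 4, by the widest margin for IFIT5 (9.16 against 9.68). MDA-468 siChe-1 replicate 1 was the lowest of its group for all 4, for instance at 11.39 for IFIT3 where the others were 11.62 and 11.76. AATF was 7.08 on that array, against 7.13 and 7.29 on the others. In SKBR3 AATF was 7.97 on siChe-1 replicate 2 and 8.09 on replicate 1. The 99th percentile of all probe sets was also lower on these arrays. It was 12.36 against 12.42 in SKBR3, and 12.44 against 12.48 and 12.54 in MDA-468. Their medians were higher, at 6.45 against 6.38 in SKBR3, and 6.94 against 6.89 on both others in MDA-468. The SKBR3 group held only 2 arrays, and the part of AATF or of array-wide signal in these values was not tested.

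The 5 genes stand side by side on chromosome 10, and 12 protein-coding neighbours, 6 on each side in the GRCh38.p14 gene table, were followed to see how far the rise extended along it. Of these, 11 had a probe set and 9 were tested. In SKBR3 FAS, CH25H and LIPA were called higher, and STAMBPL1 and KIF20B lower, where 6.64% of genes tested were higher and 17.1% lower. In MDA-468 STAMBPL1, ACTA2, FAS, CH25H, LIPA and ANKRD1 were called higher and PANK1 lower, where 16.4% were higher and 27.0% lower.

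CH25H, which makes the antiviral sterol 25-hydroxycholesterol and lies 2 genes before IFIT2, had the largest rise of the neighbours. It went from 5.38 and 5.30 to 7.61 and 7.52 in SKBR3 (2.22 ± 0.13, limma adjusted p = 3.92e-07) and from between 5.57 and 6.05 to between 9.34 and 9.37 in MDA-468 (3.54 ± 0.11, adjusted p = 8.61e-10). FAS, a death receptor, rose by 1.31 ± 0.23 in SKBR3 and 3.06 ± 0.18 in MDA-468. Both rose more in MDA-468 (adjusted p of the difference 0.000424 for CH25H and 0.00202 for FAS), the reverse of IFIT2, IFIT3 and IFIT5. LIPA, the lysosomal acid lipase gene next to IFIT2, rose by 0.77 ± 0.12 and 0.50 ± 0.097.

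On the other side, SLC16A12 next to IFIT5 was below the filter level, with siControl means of 4.44 in SKBR3 and 5.22 in MDA-468 and siChe-1 means of 4.33 and 5.36. PANK1, a pantothenate kinase, measured -0.07 (adjusted p = 0.656) in SKBR3 and fell by 0.29 in MDA-468. KIF20B, a mitotic kinesin, fell by 1.03 in SKBR3 (adjusted p = 0.0194, lost with SKBR3 fitted alone) and measured 0.39 in MDA-468 (adjusted p = 0.188). STAMBPL1, a deubiquitinase, fell by 0.41 in SKBR3 (adjusted p = 0.0183, also lost with SKBR3 fitted alone) and rose by 1.13 in MDA-468. RPP30, a subunit of RNase P, measured -0.32 and -0.10 and passed in neither line (adjusted p = 0.111 and 0.515), and HTR7, below the filter level, measured 0.03 and -0.03. ACTA2, smooth muscle actin, measured 0.31 in SKBR3 (adjusted p = 0.355) and rose by 1.19 in MDA-468. ANKRD1, known as a target of YAP, measured -0.23 in SKBR3 (adjusted p = 0.286) and rose by 2.78 in MDA-468, a difference of -3.01 between the lines (adjusted p = 3.6e-06). In SKBR3 the siControl and siChe-1 means of STAMBPL1 (5.72 and 5.31), ACTA2 (5.40 and 5.71) and ANKRD1 (4.72 and 4.50) were also below the filter level. Their changes there are imprecise. The changes of the 4 IFIT genes were above those of every measured neighbour in both lines; the closest were IFIT5 at 3.65 and CH25H at 3.54 in MDA-468, a difference that was not tested.

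**Figure D3:**
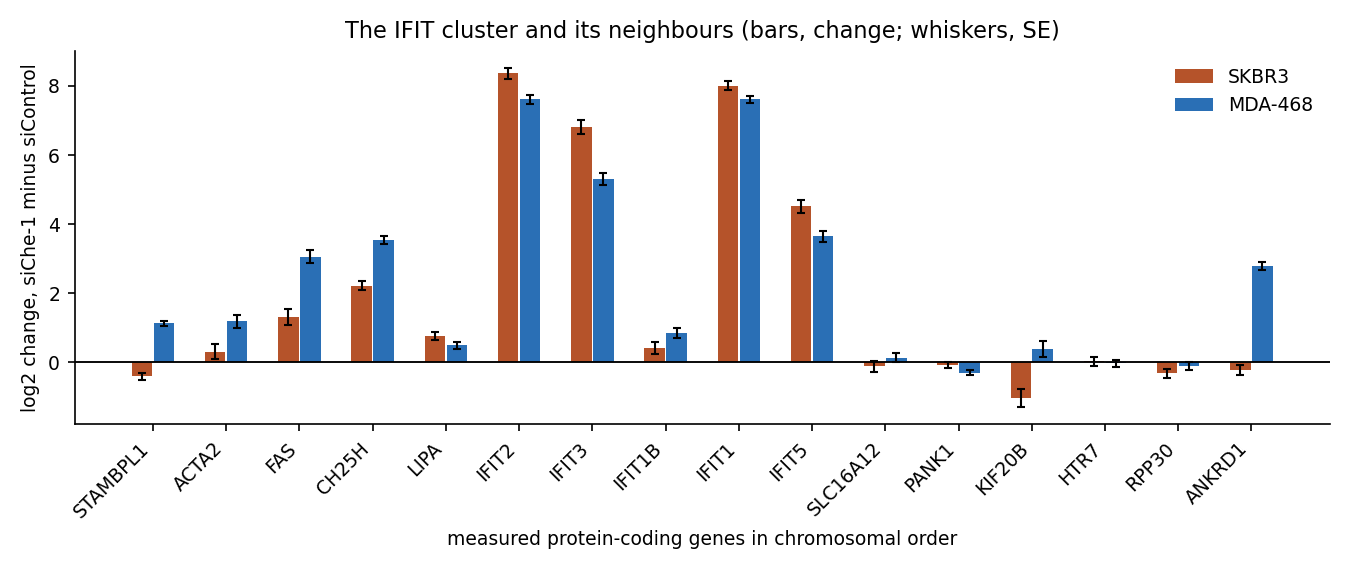
Log2 change with siChe-1 (bars) and its SE (whiskers) of the IFIT genes and their 11 measured neighbours in chromosomal order, for SKBR3 and MDA-468. IFIT2, IFIT3, IFIT1 and IFIT5 rise in both lines, IFIT1B between them stays under 1 log2 unit, and CH25H and FAS before the cluster rise more in MDA-468.

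By the root mean square difference of changes over the 10 arrays, IFIT1 and IFIT2 were each other's closest gene, at 0.21 log2 units. Outside the family, the 3 genes most like IFIT1 were RSAD2 (0.94), CXCL10 (0.95) and CCL5 (1.04), and the same 3 were nearest to IFIT2, at 1.07 for CXCL10 to 1.20 for CCL5. RSAD2 encodes the antiviral enzyme viperin, and CXCL10 and CCL5 are chemokines. IFIT3 was nearest to IFNL1, a type III interferon gene (0.34), HERC5, the ligase for ISG15 (0.38), and OAS2, a sensor of double-stranded RNA (0.43). IFIT5 was nearest to IFIH1, which encodes the RNA sensor MDA5 (0.33), IFNL3 (0.36) and SLC15A3, a lysosomal peptide transporter (0.38). RSAD2 rose by 6.00 in SKBR3 and 7.26 in MDA-468, so it ran against IFIT2 between the lines, whereas HERC5 rose by 7.33 and 5.05, as IFIT3 did. The nearest genes were picked over the arrays of both lines, so a shared direction between lines is partly built into that choice.

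Upstream of the family, interferon genes rose in both lines. IFNL1 rose by 6.47 in SKBR3 and 4.85 in MDA-468, IFNL2 by 6.46 and 4.37, IFNL3 by 5.06 and 3.45, and IFNB1, the first type I interferon made after virus sensing, by 6.30 and 3.93. All 4 rose by more in SKBR3 (adjusted p of the difference 5.05e-05 to 0.000503). Of 16 interferon genes with a probe set, only these 4 passed the filter, and the median change over all 16 was 2.11 in SKBR3 and 0.16 in MDA-468. With no filter, 12 of 16 were called higher in SKBR3 and 4 in MDA-468, beside 4.69% and 12.4% of all 18417 genes. The 8 further genes in SKBR3 were IFNE and the alpha interferon genes IFNA2, IFNA5, IFNA8, IFNA10, IFNA13, IFNA16 and IFNA21, for instance IFNA10 at 3.13 with siControl and 7.46 with siChe-1, against 3.61 and 3.35 in MDA-468. Genes of the alpha and of the lambda interferons are near-identical within each family, so the single members are uncertain.

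Of 15 genes that sense RNA and activate IRF3, 9 rose and 0 fell in SKBR3, while 11 rose and 2 fell in MDA-468. Over all genes tested, 6.64% rose and 17.1% fell in SKBR3, and 16.4% rose and 27.0% fell in MDA-468. Their median change was 1.62 and 1.31, against -0.08 and -0.02 over all genes tested. RIGI, the sensor of triphosphate RNA, rose by 5.65 and 4.14, IFIH1 by 4.14 and 4.07, and DHX58, their relative LGP2, by 4.49 and 2.34. IRF3 itself measured -0.0054 in SKBR3 (adjusted p = 0.979) and 0.12 in MDA-468 (adjusted p = 0.273), and IRF7 rose by 2.04 and 1.31. The 2 that fell in MDA-468 were the adaptor gene MAVS (-0.24) and RNF135 (-0.31); with single arrays left out, the list had 0 to 2 lower calls there.

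In a list of interferon receptors, ISGF3 and their kinases and regulators, 6 of 12 genes tested rose and 2 fell in SKBR3. In MDA-468 7 rose and 2 fell (median 0.31 and 0.48). Those that rose were IRF9, IRF1, IRF2, USP18 and SOCS3 in both lines, SOCS1 in SKBR3, and JAK1 and TYK2 in MDA-468. No receptor chain was called higher, and IRF9 was the only part of ISGF3 measured in the list. IRF9, the DNA-binding part of ISGF3, rose by 3.13 and 2.63, USP18, which dampens receptor signalling, by 2.58 in each line, and IRF1 by 2.31 and 2.98. Of all genes tested, 6.64% rose in SKBR3 and 16.4% in MDA-468. The 2 of 12 lower calls in each line did not exceed the shares of all genes tested that fell, 17.1% and 27.0%. They were IFNAR1 (-0.69) and IL10RB (-0.41) in SKBR3, and IFNAR2 (-0.58) and IL10RB (-0.32) in MDA-468, which encode receptor chains. With single arrays left out, the list had 0 to 3 lower calls in SKBR3 and 0 to 2 in MDA-468.

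Other interferon-stimulated effectors rose in 34 of 34 tested in both lines, with a median of 5.71 in SKBR3 and 4.51 in MDA-468, where 6.64% and 16.4% of all genes tested rose. In SKBR3 the siControl mean of only 9 of the 35 was above the filter level, against 34 siChe-1 means, and in MDA-468 25 against 34, so that many were tested only through their siChe-1 values. These genes were listed as interferon-stimulated with their rise in these arrays known, so their count is no independent evidence. MX1, an antiviral GTPase, rose by 7.75 and 4.35, IFI6 by 5.49 and 5.93 and CCL5 by 5.94 and 6.76. The 35th, EPSTI1, was below the filter level, with siControl means of 3.32 and 4.16 and siChe-1 means of 3.64 and 4.62; fitted with no filter, it measured 0.31 in SKBR3 (adjusted p = 0.107) and rose by 0.46 in MDA-468 (adjusted p = 0.00313). The ISRE core was in the promoter of 23 of the 29 effectors with an entry (79.3%), and in 29 of 66 (43.9%) of the genes other than IFIT with an entry that rose over 4-fold in both lines. Over all 27305 genes of the promoter table the share was 3.71%, and over the 10260 genes tested with an entry it was 3.15%. The core was in 5 of 18 interferon genes, 1 of 10 RNA sensing genes and 1 of 10 genes of the receptor and ISGF3 list. Among lists described below it was in 2 of 8 for translation initiation factor 3, 0 of 9 cap genes and 0 of 21 other tetratricopeptide repeat genes. The effectors and the 4-fold set were chosen with their rise known, and a link between core and rise was not tested.

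Genes that share only a biochemical setting with the family did not rise as groups. Among 9 tested genes of cap synthesis, methylation and binding, 1 rose in each line: CMTR1, which methylates the ribose next to the cap and so makes the mark that IFIT1 does not bind, by 1.26 in SKBR3 (adjusted p = 1.22e-05) and 1.06 in MDA-468 (adjusted p = 3.47e-06). NCBP1 and NCBP2, the nuclear cap-binding proteins, fell by 0.45 and 0.42 in SKBR3 and by 0.34 and 0.91 in MDA-468, and RNGTT, the capping enzyme, fell by 0.48 in SKBR3; the 3 lower calls in SKBR3 were lost with SKBR3 fitted alone, and leaving out single arrays gave 0 to 4 lower calls there and 1 to 4 in MDA-468. CMTR2, which methylates the following nucleotide, measured -0.35 and -0.05 (limma adjusted p = 0.101 and 0.779). Beside these counts, 6.64% of all genes tested rose and 17.1% fell in SKBR3, and 16.4% rose and 27.0% fell in MDA-468. In MDA-468 the 1 higher and 2 lower calls of 9 were below those shares.

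Translation initiation factor 3, a complex that IFIT1 and IFIT2 can bind, had 0 of 12 subunits higher in either line. It had 2 lower in SKBR3 (EIF3L by 0.36 and EIF3F by 0.34; 0 with SKBR3 fitted alone, 0 to 6 with single arrays left out) and 7 in MDA-468, among them EIF3L (-0.66) and EIF3E (-0.68). Over all genes tested 17.1% fell in SKBR3, a share that the 2 of 12 subunits did not exceed, and 27.0% in MDA-468. Of 22 other tetratricopeptide repeat genes, 0 rose and 7 fell in SKBR3 (1 to 10 fell with single arrays left out, 0 with SKBR3 fitted alone), and 4 rose (TTC7A, TTC9, TTC17 and TTC39B, by 0.32 to 0.63) and 10 fell in MDA-468. TTC39A fell by 0.58 and 1.30, TTC5 by 0.46 and 0.56, and TTC39C measured -0.22 in SKBR3 (adjusted p = 0.286) and fell by 0.75 in MDA-468. The 4 that rose in MDA-468 stand beside 16.4% of all genes tested, a share close to theirs. The medians of these 22 genes were -0.17 and -0.25.

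**Figure D4:**
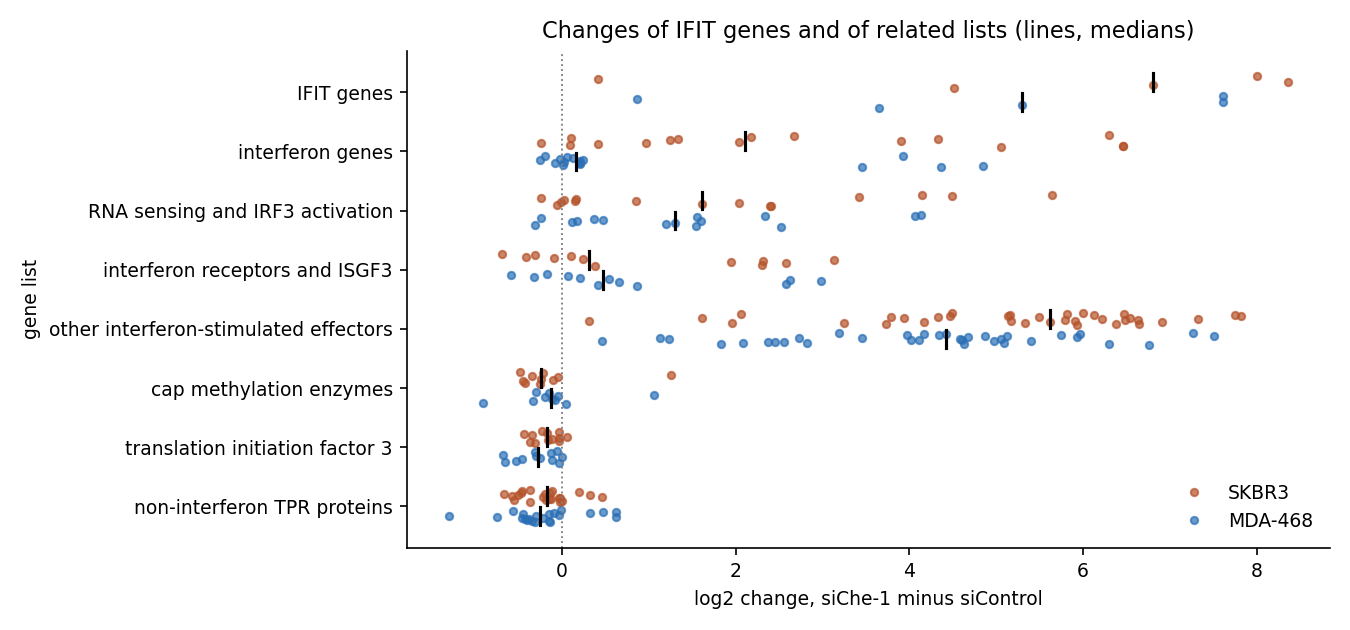
Log2 change with siChe-1 of every gene with a probe set (points) in the IFIT family and 7 related lists, for SKBR3 and MDA-468, with black lines at the list medians. The medians of the IFIT genes and of the other interferon-stimulated effectors lie above 4 in both lines, while cap methylation enzymes other than CMTR1, translation initiation factor 3 and other tetratricopeptide repeat genes lie around 0.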

How the data were processed

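Total RNA of 10 samples was labelled and hybridised to 1-colour Affymetrix arrays. The submitters' processing notes name RMA and Affymetrix Expression Console, and the table deposited by the authors holds one log2 intensity per probe set and array. The sources used here do not say which versions ran or whether both lines were normalized together. Probe sets with 1 gene symbol (19460 of 33297; 1754 had several and 12083 none) were used, and for a gene with several the one with the highest mean. Genes above the 30th percentile of mean value (12892 of 18417) were fitted with limma 3.58.1 in R 4.3.3 as 4 group means over 10 arrays. Benjamini-Hochberg adjustment ran over all genes tested, with calls at an adjusted p under 0.05. Ratios of members were tested by exact permutation within lines. Both tests were tested on simulated data.

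The members and gene lists were chosen with earlier results of these data known. Named genes were AATF, the members, their 3 most alike genes, measured neighbours, and per list the 3 with the smallest p and those behind counts of 5 or fewer. IRF3, IRF7, CMTR2, EPSTI1 and the alpha interferon genes were added after their values were seen. Sequences are RefSeq's. The number of arrays limits the precision. Other filters, normalizations and fits, and leaving out each array, were tried.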

Additional observations from a re-analysis of the deposited data

Results flagged for a closer look

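The change with siChe-1 differed between the lines (SKBR3 change minus MDA-468 change, limma, adjusted p under 0.05) for 23 of 41 named genes tested. Over all genes tested, 8.49% had a positive and 10.7% a negative difference; many named genes were picked by their change, so the count is a description. Among the IFIT genes the difference was 0.74 for IFIT2, 1.51 for IFIT3 and 0.87 for IFIT5.

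Of the genes whose changes were most like those of an IFIT gene, IFNL1 and IFNL3 differed by 1.61 each and HERC5 by 2.28, in the direction of IFIT3. RSAD2 differed by -1.26 and CCL5 by -0.83, the opposite direction. These genes were picked for their likeness over the arrays of both lines, so a shared direction is no independent evidence. Further interferon pathway genes differed by 2.37 (IFNB1), 2.09 (IFNL2), 1.51 (RIGI), 2.15 (DHX58), 3.40 (MX1), -0.67 (IRF1) and -0.44 (IFI6).

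All 5 neighbours of the cluster with a called difference had a negative one: STAMBPL1 (-1.53), FAS (-1.75), CH25H (-1.31), KIF20B (-1.42) and ANKRD1 (-3.01). In SKBR3 both group means of STAMBPL1, FAS and ANKRD1 were below the filter level, so their differences are imprecise. AATF differed by 1.05, since it fell by 0.66 in SKBR3 and by 1.71 in MDA-468. NCBP2 (0.49) and TTC39A (0.72) also fell by less in SKBR3. Whether the depth of the AATF reduction moved with the size of the IFIT response across lines was not tested, as there were 2 lines. Groups of 2 and 3 arrays were too small to look for single outlying arrays.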

How the results depend on the processing

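The changes of IFIT1, IFIT2, IFIT3 and IFIT5 within each line kept their direction and their call in every alternative in which they were tested, with a highest adjusted p of 1.66e-05 (limma). With a filter on the siControl mean of the line, 2 of 2 IFIT genes tested were higher in MDA-468 and none could be tested in SKBR3. Calls between lines were fewer: 2 after quantile normalization, and 1 to 3 without single arrays.

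The replicate numbers did not pair the arrays (correlation of deviations -0.556 in SKBR3 and -0.491 to 0.0015 in MDA-468). With the replicate number as a block, 1 IFIT gene differed between lines, and IFIT2 and IFIT5 did not (adjusted p = 0.0703 and 0.0735). With the SKBR3 numbers crossed, an alternative chosen after seeing the data, the counts were 4 in SKBR3, 4 in MDA-468 and 3 between lines.

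Of the neighbours, 1 was higher in SKBR3 with the siControl filter, and 2 were higher in MDA-468 with a filter at the 50th percentile. Lower in SKBR3 were 1 with the 50th percentile filter, 0 with each line fitted alone, 0 with the replicate block and 0 to 3 without single arrays. With no filter, 12 of 16 interferon genes were higher in SKBR3, beside 4.69% of all genes. Fitting SKBR3 alone left 437 genes higher and 232 lower, where the fit over both lines had 856 and 2201. The replicate block left 576 higher and 673 lower there. The causes were not tested. Low signal limits the siControl levels of all 5 members in SKBR3 and of IFIT1, IFIT2 and IFIT1B in MDA-468, whose means were below the filter level of 6.03.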
